A study of Mus musculus with 2 samples.

Results

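The genes of the GATA1-TAL1 complex and of its closest erythroid partners were measured in the embryonic mouse liver. They are 10 of the 43346 mouse genes in the deposited tables: Gata1, Gata2, Zfpm1, Tal1, Lyl1, Tcf3, Lmo2, Ldb1, Cbfa2t3 and Gfi1b. They were taken by symbol, from published knowledge of the complex. The samples were livers of B6NCrl embryos of both sexes at embryonic day 11.5, and total RNA was sequenced from 10 ng per library. The 2 libraries form 1 group, for which the labels name no genetic change or treatment: replicate 1 came from 109 pooled embryos and replicate 2 from pooled embryos of unstated number, and the labels number them as separate biological replicates. Levels within the tissue and the spread between these libraries can therefore be described, but no condition can be tested. Each value with ± is a mean and SD of both libraries (n = 2). TPM, the share of transcripts after correction for length, allows levels of different genes to be set side by side. Coordinates are on GRCm38.

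GATA1 is the zinc finger protein that switches on red cell genes, and GATA2 occupies many of the same DNA sites earlier, in blood progenitors. TAL1 binds DNA next to GATA1 as a dimer with an E protein such as TCF3, and the adaptor LMO2 and the dimerising protein LDB1 join these factors into 1 complex that can bridge distant enhancers and promoters. FOG1, made from Zfpm1, the corepressor ETO2, made from Cbfa2t3, and the repressor GFI1B decide together with this core which genes are silenced. In the fetal liver the complex is best known from red cell precursors, but megakaryocytes, mast cells, blood stem cells and endothelium use several of its members too.

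Blood cells and liver cells were both represented. The median TPM of the marker lists was 135 ± 14.1 for 5 erythroid, 36.4 ± 4.13 for 7 megakaryocyte, 27.5 ± 1.92 for 7 macrophage, 19.5 ± 0.269 for 7 endothelial, 5.27 ± 0.0283 for 7 stem and progenitor and 609 ± 31.4 for 7 hepatoblast genes. Of 6 mast cell and basophil markers, Cpa3 (2.25 ± 0.75 TPM) and Hdc (6.59 ± 1.34 TPM) passed 1 TPM in both libraries, while Mcpt8, Ms4a2, Cma1 and Fcer1a stayed at or below 0.15 TPM. Among the marker lists, heart muscle differed most between the libraries: replicate 1 exceeded replicate 2 at least 2-fold in 9 of its 10 genes. Of all genes averaging 10 or more counts, 4.40% were that far apart in either direction. The heart muscle markers summed to 319.51 TPM in replicate 1 against 140.36 TPM in replicate 2. Control RNAs added to the samples held 14.6% of TPM in replicate 1 and 11.1% in replicate 2, which lowers the deposited TPM of every mouse gene. On mouse genes alone TPM was 1.15-fold higher on average. The libraries held 34344230 and 31477397 estimated counts. In bulk tissue, fewer cells of a type and less RNA per cell cannot be told apart.

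All 10 genes were detected at 1 TPM or more in both libraries, which 56.6% of 21474 protein-coding genes reached. Their median was 57.1 TPM in replicate 1 and 55.1 TPM in replicate 2, against 2.82 and 2.87 TPM over all protein-coding genes. Of the 10, 9 passed 10 TPM in both libraries, as did 35.1% of protein-coding genes, and 4 passed 100 TPM, as did 6.19%. The order of mean TPM was Lmo2, Gata1, Tcf3, Gfi1b, Ldb1, Lyl1, Tal1, Zfpm1, Cbfa2t3 and Gata2, a span of 19.4-fold. Neighbours in this order were called apart only if neither library reversed them, their deposited credibility intervals were disjoint in each library, and the gap between the genes (log2) was wider than that between the libraries. This held for 6 of 9 neighbouring pairs. Gata1 and Tcf3 (log2 ratio 0.09 ± 0.04), Tcf3 and Gfi1b (0.03 ± 0.07) and Ldb1 and Lyl1 (0.13 ± 0.15) were not apart, and Tcf3 and Gfi1b changed places between the libraries. With 2 libraries the smallest p of an exact sign-flip test is 0.5, and no test was run.

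**Figure D1:**
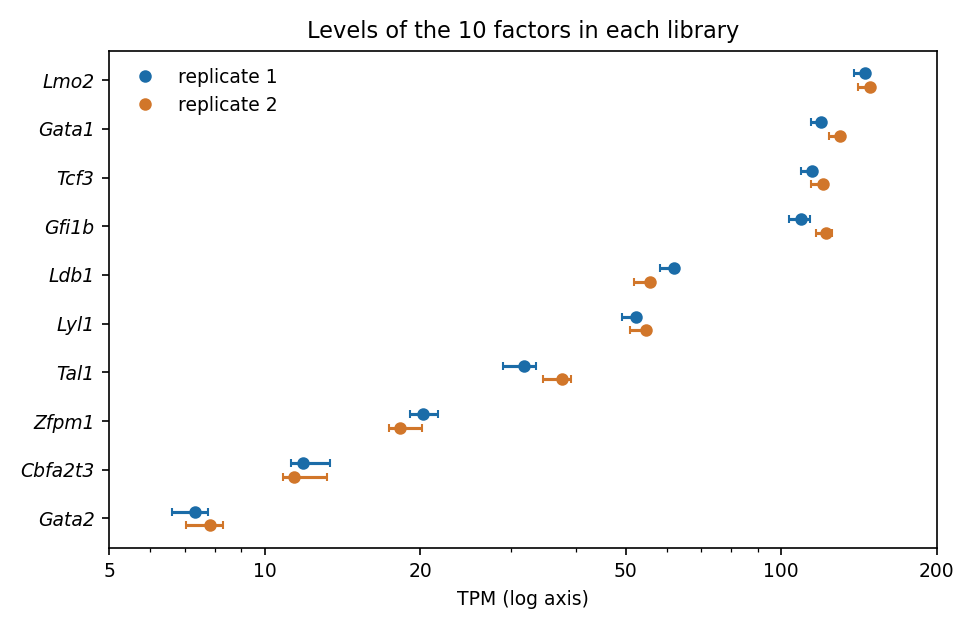
TPM on a log axis for each of the 10 genes, with 1 point per library and bars for the deposited credibility interval, which is centred on the posterior mean and not on the point. Lmo2, Gata1, Tcf3 and Gfi1b lie above 100 TPM in both libraries, and Gata2 is lowest at 7.58 ± 0.354 TPM.

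The stretches of DNA in front of the genes are shown for the members whose start sites matter below. RefSeq, on build GRCm38.p6, gave 14 promoter windows for 9 of the 10 genes, each reaching from 250 bases before a start to 50 bases from the start on. Lmo2 had no entry. Windows were searched on both strands for GATA motifs (AGATAA and its variant AGATAG, or TGATAA and its variant TGATAG), for E-boxes (CANNTG, the site of TAL1-E protein dimers) and for CTG followed after 8 to 10 bases by a GATA motif. The last is a form at which the complex is known to bind and was added after the data were seen. The E-box and the composite can overlap in their letters. Capitals mark GATA motifs, E-boxes and the CTG of the composite. The windows shown are Gfi1b (chr2:28621933-28622232, minus strand), the upstream and downstream starts of Cbfa2t3 (chr8:122699060-122699359 and chr8:122678126-122678425, minus strand), the upstream and downstream starts of Gata2 (chr6:88193641-88193940 and chr6:88198414-88198713, plus strand) and the upstream start of Tal1 (chr4:115056176-115056475, plus strand).
Gfi1b: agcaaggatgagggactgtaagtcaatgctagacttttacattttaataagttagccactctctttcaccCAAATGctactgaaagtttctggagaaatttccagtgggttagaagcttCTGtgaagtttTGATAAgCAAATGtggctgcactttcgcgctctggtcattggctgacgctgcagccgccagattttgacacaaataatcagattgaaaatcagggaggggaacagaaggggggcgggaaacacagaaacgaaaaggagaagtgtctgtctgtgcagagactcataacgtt
Cbfa2t3 upstream: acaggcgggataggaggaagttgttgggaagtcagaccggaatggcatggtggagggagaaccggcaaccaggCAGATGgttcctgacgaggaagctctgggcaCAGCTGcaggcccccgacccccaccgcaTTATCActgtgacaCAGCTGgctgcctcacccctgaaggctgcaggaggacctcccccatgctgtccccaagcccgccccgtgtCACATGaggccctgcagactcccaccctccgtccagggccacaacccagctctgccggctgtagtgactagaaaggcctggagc
Cbfa2t3 downstream: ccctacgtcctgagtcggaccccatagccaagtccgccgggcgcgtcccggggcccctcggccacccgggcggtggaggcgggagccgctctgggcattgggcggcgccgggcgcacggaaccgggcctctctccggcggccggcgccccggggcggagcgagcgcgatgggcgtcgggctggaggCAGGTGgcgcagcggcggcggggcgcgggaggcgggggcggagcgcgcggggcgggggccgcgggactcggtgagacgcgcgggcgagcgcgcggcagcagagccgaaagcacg
Gata2 upstream: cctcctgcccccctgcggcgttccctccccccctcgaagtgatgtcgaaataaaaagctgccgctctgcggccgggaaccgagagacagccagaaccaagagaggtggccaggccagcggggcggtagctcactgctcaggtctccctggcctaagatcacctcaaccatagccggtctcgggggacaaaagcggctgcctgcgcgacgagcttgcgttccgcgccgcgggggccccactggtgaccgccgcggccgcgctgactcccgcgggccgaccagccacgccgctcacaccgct
Gata2 downstream: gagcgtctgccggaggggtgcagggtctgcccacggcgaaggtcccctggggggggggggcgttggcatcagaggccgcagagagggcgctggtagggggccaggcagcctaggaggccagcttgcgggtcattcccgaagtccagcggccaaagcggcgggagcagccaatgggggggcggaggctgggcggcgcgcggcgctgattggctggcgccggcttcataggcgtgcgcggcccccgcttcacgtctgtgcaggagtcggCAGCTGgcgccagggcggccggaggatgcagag
Tal1 upstream: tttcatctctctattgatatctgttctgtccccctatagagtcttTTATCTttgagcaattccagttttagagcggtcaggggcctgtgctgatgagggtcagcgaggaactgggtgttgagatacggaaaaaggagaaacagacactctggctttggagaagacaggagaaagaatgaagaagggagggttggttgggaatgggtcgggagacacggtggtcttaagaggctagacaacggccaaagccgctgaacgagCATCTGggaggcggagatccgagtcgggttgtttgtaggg

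A GATA motif was present in 4 of the 14 windows, an E-box in 9 and the composite in 2, while 29.8%, 72.3% and 2.69% of 32851 RefSeq promoter windows held them. The composites lay in front of Gfi1b and Cbfa2t3. They depend on the length of the window: within 100 bases before the start, 0 of the 14 windows held a composite or a GATA motif. In the Gfi1b window it read CTGTGAAGTTTTGATAA and began 131 bases before the start. In the upstream Cbfa2t3 window it read TTATCACTGTGACACAG, on the opposite strand, and began 118 bases before the start. The other GATA motifs were in the upstream Tal1 window, 205 bases before the start, and in a window of Ldb1 that matches none of its annotated GENCODE starts. Neither Gata2 window held a GATA motif, and an E-box began at base 18 from the downstream RefSeq start of Gata2 on. That downstream window lies wholly within the first exon which GENCODE M21 gives Gata2-201 (chr6:88198334-88198881), so the annotations place this start differently. A match of letters is a description and shows no binding.

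Gata1 was the leading GATA gene, and Gata2 was low but present. Gata1 (ENSMUSG00000031162.10; chrX:7959260-7978071, minus strand) had 119.63 TPM in replicate 1 and 130.16 TPM in replicate 2, an average of 125 ± 7.45 TPM, higher than 94.7% of protein-coding genes. Gata2 (chr6:88193891-88207032, plus strand) had 7.33 and 7.83 TPM in replicates 1 and 2, or 7.58 ± 0.354 TPM. Their credibility intervals lay far apart in both libraries, and Gata1 exceeded Gata2 by 4.02 ± 0.02 on the log2 scale. Within the GATA family Gata1 held 64.4% ± 0.912 of summed TPM. Gata4, a factor of liver and heart development, followed with 18.7% ± 0.505 and Gata6, of the same tissues, with 8.07% ± 1.21. Gata2 held 3.91% ± 0.00455. Gata5 (5.76 and 6.23 TPM in replicates 1 and 2), whose counts were shared out with other features, and Gata3 (3.47 ± 0.311 TPM), a T cell and neural factor, were of the same order as Gata2. In this tissue the second blood GATA factor was thus exceeded by Gata4, with a log2 ratio of Gata2 over Gata4 of -2.25 ± 0.04.

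Gata1 came almost wholly from 1 transcript. Gata1-201 carried 97.3% of its TPM in replicate 1 and 98.4% in replicate 2. A transcript that starts 10161 bases farther upstream, Gata1-202, carried 1.32% and 0.81%. Gata2 has a pair of annotated first exons with the same coding length of 1440 bases, and an upstream first exon is known in mice from blood-forming and nerve cells. The transcript from the downstream exon, Gata2-201, carried 96.4% of Gata2 TPM in replicate 1 and 89.2% in replicate 2, at 7.07 and 6.98 TPM. Gata2-201 has 3241 bases in the deposited table and 3571 in M21. The upstream one, Gata2-202, starts 4443 bases before the M21 start of Gata2-201 and carried 3.61% and 10.8%. Its level of 0.26 TPM in replicate 1 had a credibility interval from 0.0171 to 1.14 TPM, and its level of 0.84 TPM in replicate 2 had one from 0.123 to 2.19 TPM. The intervals overlapped, so the gap between the libraries in use of the upstream exon was not resolved at this depth. The downstream transcript was higher in both libraries beyond these intervals, which ran from 5.87 to 7.48 TPM in replicate 1 and from 5.33 to 7.69 TPM in replicate 2.

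Zfpm1 encodes FOG1, the zinc finger partner that GATA1 needs for red cell and megakaryocyte formation. It had 20.26 TPM in replicate 1 and 18.29 TPM in replicate 2 (19.3 ± 1.39 TPM; chr8:122282141-122337251, plus strand). Gata1 exceeded it 6.45-fold (log2 ratio 2.69 ± 0.19). Zfpm1 held 82.2% ± 2.25 of FOG family TPM, and Zfpm2, the partner of GATA4 in the heart, had 4.17 ± 0.339 TPM. Zfpm1-201 carried 97.5% and 100% of its TPM in replicates 1 and 2.

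Among the basic helix-loop-helix genes, the order by level ran opposite to the name of the complex. Tal1 (chr4:115056426-115071755, plus strand) had 31.81 TPM in replicate 1 and 37.71 TPM in replicate 2, or 34.8 ± 4.17 TPM. Its paralogue Lyl1 (chr8:84701457-84704715, plus strand), which can stand in for TAL1 in stem cells, had 52.40 and 54.62 TPM, or 53.5 ± 1.57 TPM. The log2 ratio of Tal1 over Lyl1 was -0.63 ± 0.13 on TPM. On estimated counts, where length is left uncorrected, it was 0.35. Of TAL family TPM, Tal1 held 39.3% ± 2.15 and Lyl1 60.7% ± 2.20. Tal2 was listed at 0 in replicate 1 and at 0.06 TPM in replicate 2. Exons of Lyl1 overlap those of Nfix (5.42 and 4.0 TPM) on the opposite strand. No source used here states whether reads were counted by strand. Lyl1 had whole estimated counts in both libraries (2301 and 2093), whereas those of Nfix were not whole (208.24 and 145.43). Whole counts show no division of Lyl1 reads between features, but not from which strand a read in the overlap came.

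Tcf3 encodes the E proteins E12 and E47, with which TAL1 and LYL1 bind DNA. It reached 114.93 TPM in replicate 1 and 120.33 TPM in replicate 2 (118 ± 3.82 TPM; chr10:80409514-80433647, minus strand). The log2 ratio of Tal1 over Tcf3 was -1.76 ± 0.13. Tcf3 held 69.5% ± 0.0753 of E protein TPM, ahead of Tcf12 (29.0 ± 1.02 TPM) and Tcf4 (22.7 ± 0.841 TPM). Genes of the ID proteins, which bind E proteins and keep them from DNA, were in the same range. Id2 (171 ± 5.99 TPM) and Id3 (153 ± 0.764 TPM) stood above Tcf3, Id1 (42.7 ± 0.403 TPM) below it, and Id4 (1.97 ± 0.297 TPM) near the detection limit.

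Transcripts of Tal1 differed in where they begin and in the length of the last exon. Tal1-201, from the most upstream start, carried 59.4% of Tal1 TPM in replicate 1 and 56.8% in replicate 2. Transcripts that start from 1012 bases farther downstream carried 16.1% ± 4.09, and Tal1-204, which begins 3082 bases on, carried 25.8% ± 5.91. Most of the former share was Tal1-202 (11.3% ± 3.71), an incomplete model of 683 bases. The 3 complete transcripts have the same coding length of 987 bases, so use of these starts does not alter the annotated coding length. Their last exons are 3479 bases long in Tal1-201, 2952 in Tal1-203 and 2193 in Tal1-204. Tcf3 was spread most widely of the 10 genes. Its main transcript, Tcf3-209, carried 38.1% in replicate 1 and 29.6% in replicate 2, followed by Tcf3-208 with 16.0% and 25.2%. Tcf3-206 had 17.8% and 7.21%, and Tcf3-210 had 1.17% and 14.1%, so the deposited shares of single transcripts moved between the libraries. With posterior mean estimates they were closer, at 30.8% and 31.8% for Tcf3-209 and 7.46% and 9.39% for Tcf3-210. The noncoding Tcf3-212 carried 9.39% ± 0.467.

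Tcf3 shares were also summed over the mutually exclusive exons that set E12 apart from E47. Of the complete coding transcripts, those with the exon of 224 or 227 bases (chr10:80410398-80410624) held 77.7% in replicate 1 and 75.4% in replicate 2. Those with the exon of 236 bases (chr10:80412827-80413062) held 22.3% and 24.6%. The shares were 76.5% ± 1.58 and 23.5% ± 1.58, and with posterior mean estimates they were 76.4% ± 1.69 and 23.6% ± 1.69. The noncoding Tcf3-212 (9.39% ± 0.467 of the gene's TPM), whose exon at chr10:80412627-80413062 covers the exon of 236 bases, is in neither sum. Which exon encodes which protein was not examined here, and this sum over transcripts was chosen after the data were seen.

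**Figure D2:**
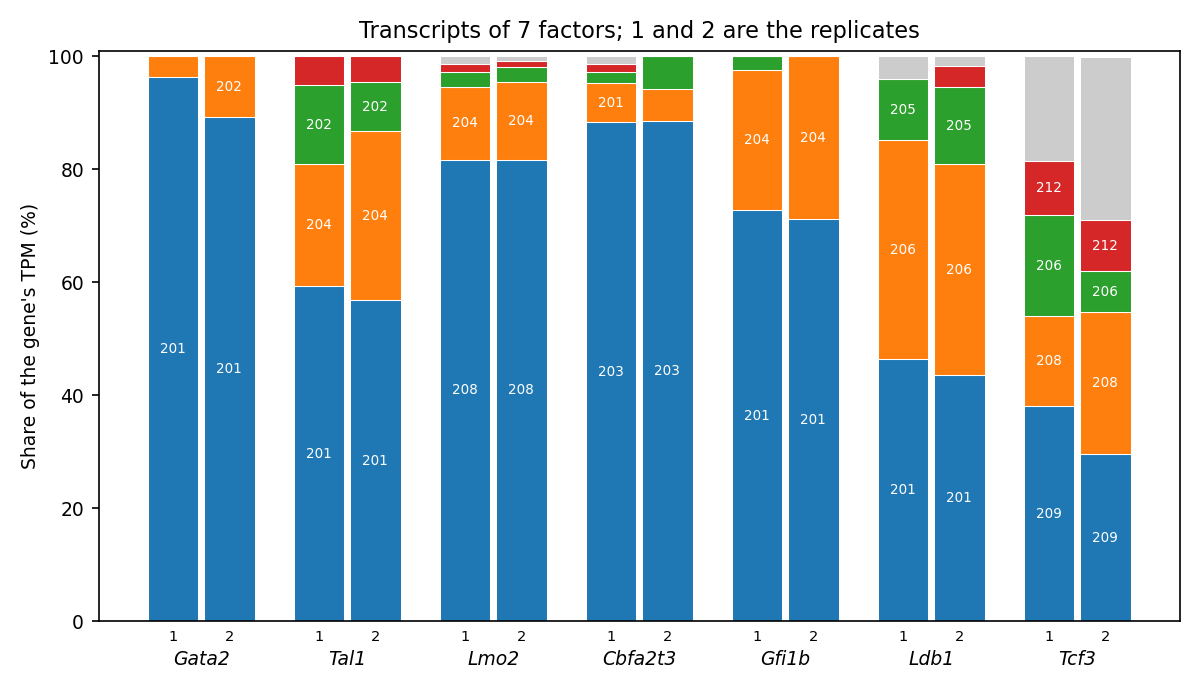
Stacked bars show the percent of each gene's TPM carried by its transcripts, for 7 genes with more than 1 transcript. In Gata2 the second transcript, Gata2-202, carried only 3.61% in replicate 1 and 10.8% in replicate 2. The left bar of each pair is replicate 1 and the right bar replicate 2. Numbers inside are GENCODE transcript numbers, colours rank the 4 leading transcripts within a gene, and grey holds the rest. Lmo2 and Cbfa2t3 have 1 dominant transcript, Ldb1 has a pair near each other, and Tcf3 is divided among many.

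The adaptor Lmo2 had the highest TPM of the 10 genes. It encodes a LIM domain protein that binds no DNA itself and holds TAL1, GATA1 and LDB1 together. Lmo2 (chr2:103957986-103981878, plus strand) had 145.57 TPM in replicate 1 and 148.52 TPM in replicate 2, or 147 ± 2.09 TPM, above 95.6% of protein-coding genes. It was apart from Gata1, the next in order, by 1.18-fold on TPM. On estimated counts, where length is left uncorrected, Lmo2 (4998 and 4445) was below Gata1 (5455 and 5222) and Tcf3 (7298 and 6802). Lmo2 held 79.8% ± 0.722 of LMO family TPM. Lmo4, a widely expressed relative that also binds LDB1, had 33.2 ± 1.82 TPM, Lmo1 had 2.93 ± 0.311 TPM, and Lmo3 had 0.69 and 1.21 TPM. Transcripts from the distal start of Lmo2 carried 82.8% ± 0.311 of its TPM, nearly all of it Lmo2-208 with 81.7% in each library. Starts 11542 and 12143 bases downstream carried 13.3% ± 0.559 and 3.93% ± 0.240. The first of these shares rests on Lmo2-204 alone, an incomplete model of 848 bases. It had 363.63 and 343.49 of the 4998 and 4445 Lmo2 counts in replicates 1 and 2.

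Ldb1 encodes the protein that dimerises and so joins 1 complex to another. Its levels were 61.87 TPM in replicate 1 and 55.65 TPM in replicate 2 (58.8 ± 4.40 TPM; chr19:46031570-46045214, minus strand). Lmo2 exceeded it 2.50-fold (log2 ratio 1.32 ± 0.13). Ldb1 held 86.5% ± 1.98 of LDB family TPM, and Ldb2 had 9.16 ± 0.870 TPM. Exons of Ldb1 overlap those of Pprc1 on the opposite strand, which had 55.4 and 61.9 TPM in replicates 1 and 2. Estimated counts of Ldb1 and of Pprc1 were whole in both libraries, and the same limit on strand applies. A pair of transcripts led Ldb1. Ldb1-201 carried 46.4% and 43.5%, and Ldb1-206 carried 38.8% and 37.5%. They differ in coding length, 1125 and 1119 bases, through an exon of 149 or 143 bases. Ldb1-205, with a shorter coding length of 957 bases and a start downstream of both, carried 12.2% ± 1.92.

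Genes whose proteins bind LDB1 and protect it from breakdown were measured as RNA beside Ldb1. Ssbp2 (83.8 ± 4.26 TPM), Ssbp4 (82.9 ± 3.95 TPM) and Ssbp3 (62.4 ± 7.50 TPM) had levels of the same order as Ldb1. Rlim, the ubiquitin ligase that marks LDB1 and LIM domain proteins for breakdown, had 29.99 ± 1.68 TPM.

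Of the repressor genes, Gfi1b stood among the higher and Cbfa2t3 among the lower of the 10 genes. Gfi1b (chr2:28609450-28621982, minus strand) had 109.07 TPM in replicate 1 and 121.90 TPM in replicate 2, or 115 ± 9.07 TPM. Its paralogue Gfi1, a factor of white cells and stem cells, had 0.23 and 0.19 TPM. Gfi1b therefore held 99.8% ± 0.0388 of the family's TPM, the most one-sided share among the 8 gene families. Cbfa2t3 (chr8:122625141-122699109, minus strand) had 11.87 and 11.40 TPM in replicates 1 and 2, or 11.6 ± 0.332 TPM. It was the only one of the 10 genes whose estimated counts were not whole, as happens where reads are shared out between features. Exons of Cbfa2t3 overlap those of Gm10612 on the opposite strand, whose counts were not whole either (13.35 and 10.41). The paralogue Cbfa2t2 was higher than Cbfa2t3, with 18.3 ± 0.700 TPM and a log2 ratio of Cbfa2t3 over Cbfa2t2 of -0.65 ± 0.10. Runx1t1, the relative known from leukaemia fusions, had 9.22 ± 1.07 TPM. Cbfa2t3 thus held 29.7% ± 0.318 of ETO family TPM, and Tal1 exceeded it 2.96-fold (log2 ratio 1.57 ± 0.21).

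The leading Gfi1b transcripts began close together and differed in an inner exon. Gfi1b-201, with a coding length of 990 bases, carried 72.8% in replicate 1 and 71.2% in replicate 2. Gfi1b-204, in which that exon is 265 instead of 166 bases long and the coding length is 1089 bases, carried 24.8% and 28.8%. Both begin within the Gfi1b window printed above, downstream of its composite motif. Cbfa2t3 transcripts had separate starts. Those from the upstream start, whose window holds the composite and 4 E-boxes, carried 92.3% ± 2.84 of Cbfa2t3 TPM, with 90.3% in replicate 1 and 94.3% in replicate 2. This share includes Cbfa2t3-207 (3.86% ± 2.76), which begins at base 122698902, outside the window. A group of joined starts, the first of them 20934 bases downstream, carried 8.44% and 5.72%. The downstream window, with 1 E-box and no GATA motif, is at the start of Cbfa2t3-202, listed at 0 in both libraries. The share of the group came from Cbfa2t3-201 and Cbfa2t3-206, which begin at bases 122678072 and 122678111, outside that window. The main transcript, Cbfa2t3-203, carried 88.4% ± 0.0778. It has 4047 bases in the deposited table and 7645 bases in the later annotation, so its TPM depends on which gene model is right.

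**Figure D3:**
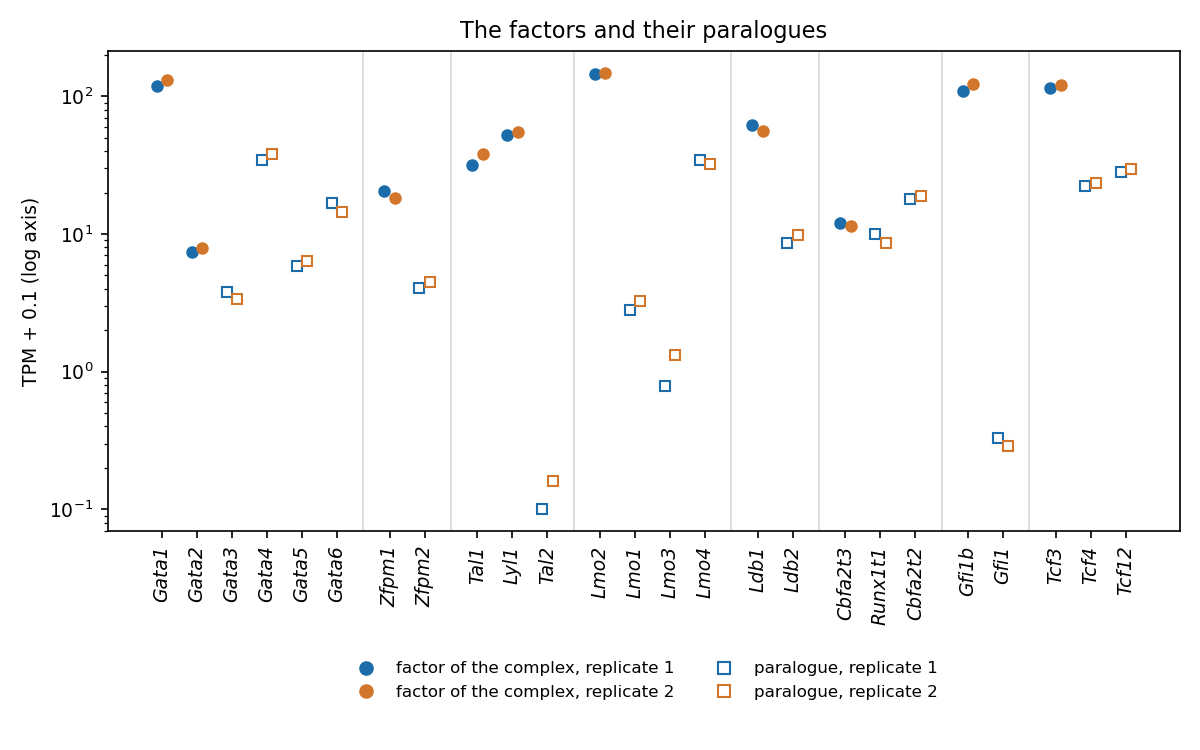
TPM plus 0.1 on a log axis for the 10 genes (filled circles) and their paralogues (open squares), 1 symbol per library and grey lines between the 8 families. Gfi1b and Gfi1 lie farthest apart, while Cbfa2t3 is below Cbfa2t2 and Gata2 is below Gata4.

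All listed genes of the complexes that carry out silencing and activation for these factors were detected as RNA. Beside the counts below, 56.6% of protein-coding genes were detected. The LSD1-CoREST complex, which GFI1B recruits, was detected with 8 of 8 genes and a median of 27.0 ± 3.14 TPM, led by the histone deacetylases Hdac1 (172 ± 11.0 TPM) and Hdac2 (133 ± 12.7 TPM) and by Hmg20b (54.3 ± 2.40 TPM). The demethylase gene Kdm1a itself had 28.6 ± 2.23 TPM. The NuRD complex, which FOG1 recruits, was detected with 11 of 11 genes and a median of 49.5 ± 1.54 TPM. It was led by the histone-binding subunits Rbbp7 (336 ± 35.9 TPM) and Rbbp4 (263 ± 30.02 TPM) and by Mbd3 (137 ± 4.50 TPM). Of 5 coactivator genes, with a median of 47.9 ± 1.68 TPM, Brd3 (85.5 ± 2.26 TPM), which binds acetylated GATA1, was highest, followed by the remodeller Smarca4 (67.8 ± 2.82 TPM) and by the Mediator subunit Med1 (47.9 ± 1.68 TPM). The lowest genes of the corepressor lists, Gatad2b (5.41 ± 0.354 TPM) and Rcor2 (6.24 ± 0.948 TPM), had lower means than Cbfa2t3 and Zfpm1.

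Genes known to be switched on through GATA1 had a higher median than those known to be shut down through it, and all matched genes of both lists were detected. The 11 activated genes matched had a median of 103 ± 0.0707 TPM, led by Klf1, the red cell activator (377 ± 39.6 TPM), Fech, the last enzyme of haem synthesis (216 ± 32.6 TPM), and Slc4a1, the anion exchanger of the red cell membrane (165 ± 26.8 TPM). Ahsp, a chaperone of alpha globin, was on the list but not analysed here. The 7 genes known to be repressed had a median of 36.4 ± 2.08 TPM. Myc led them with 184 ± 10.4 TPM, followed by Lyl1 and by Kit, the stem cell factor receptor (41.4 ± 7.62 TPM). Gata2 was the lowest of the 7, but the activated list reached lower still, with Trim58 at 4.695 ± 0.615 TPM. Members of the complex are on both lists: Zfpm1 and Gfi1b among the activated, Gata2 and Lyl1 among the repressed genes. Over all detected protein-coding genes the median was 16.2 and 17.3 TPM in replicates 1 and 2.

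Other blood factors that work with or against GATA1 had a median of 25.3 ± 0.682 TPM over 12 genes. Klf1, Ikzf1 (88.0 ± 11.6 TPM), a lymphoid and erythroid regulator, and Nfe2 (79.1 ± 10.4 TPM), a globin gene activator, were highest. Spi1, the myeloid factor that opposes GATA1, had 17.27 and 15.66 TPM in replicates 1 and 2. Gata1 exceeded it 7.55-fold (log2 ratio 2.92 ± 0.19).

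**Figure D4:**
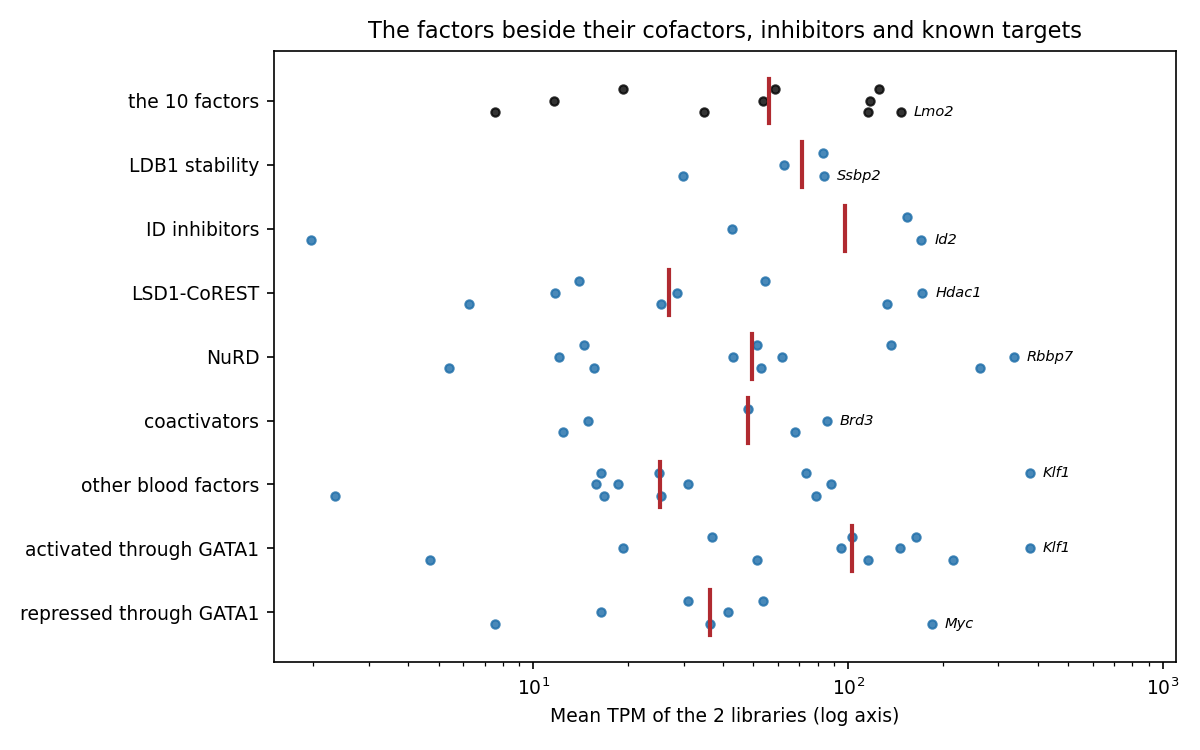
Mean TPM of the 2 libraries on a log axis, 1 point per gene, for the 10 genes and for lists of cofactors, inhibitors and known targets; red bars are list medians and the highest gene of each list is named. The 10 genes have a median of 56.1 TPM, between those of the coactivators (47.9 TPM) and the LDB1 stability factors (71.4 TPM), and the genes activated through GATA1 have the highest median.

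Between the libraries the 10 genes were at most 0.24 apart on the log2 scale. The libraries were compared on estimated counts scaled over mouse genes, which leaves the control RNAs out, as log2 of replicate 1 over replicate 2 with 95% exact binomial intervals. Of the 10 genes 0 were 2-fold apart, against 4.40% of the 16607 genes that averaged 10 or more counts, and with 10 genes this share is near the background. The median was 0.02 over the 10 genes and 0.01 over all those genes. Ldb1 had the widest gap, at 0.24 (interval 0.16 to 0.32), with 2871 and 2272 counts in replicates 1 and 2. Zfpm1 at 0.21 (0.11 to 0.32) and Cbfa2t3 at 0.17 (0.04 to 0.29) were also higher in replicate 1. Tal1, at -0.18 (-0.26 to -0.11), and Gfi1b, at -0.10 (-0.16 to -0.04), were higher in replicate 2. Gata1 was at -0.04 (-0.09 to 0.02). Lyl1 (0.04), Tcf3 (0.00) and Gata2 (0.00) were near 0 as well, and Lmo2 was at 0.07 (0.01 to 0.13). On deposited TPM, which includes the control RNAs, Lmo2, Lyl1, Tcf3, Gata2 and the median of the 10 genes were below 0, the median at -0.063.

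The counting interval excluded 0 for 6 of the 10 genes, as it did for 44.5% of the 11522 protein-coding genes that averaged 100 or more counts. Deposited credibility intervals did not overlap between the libraries for 4 of them, Gata1, Gfi1b, Ldb1 and Tal1, as for 27.0% of 12165 detected protein-coding genes. The SD of the log2 ratio over those 11522 genes was 0.20, so gaps of the size seen in Ldb1 and Tal1 were common between these libraries. The summed TPM of the 5 erythroid markers was 539.92 in replicate 1 and 643.39 in replicate 2, and their median log2 ratio on scaled counts was -0.12, with more in replicate 2. Of the 6 genes whose counting interval excluded 0, Tal1 and Gfi1b had this sign, and Ldb1, Zfpm1, Cbfa2t3 and Lmo2 had the opposite one. Megakaryocyte markers summed to 975.49 and 967.46 TPM and stem and progenitor markers to 111.32 and 127.53 TPM. The part of cell makeup, or of the heart muscle RNA in replicate 1, in these gaps was not tested.

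**Figure D5:**
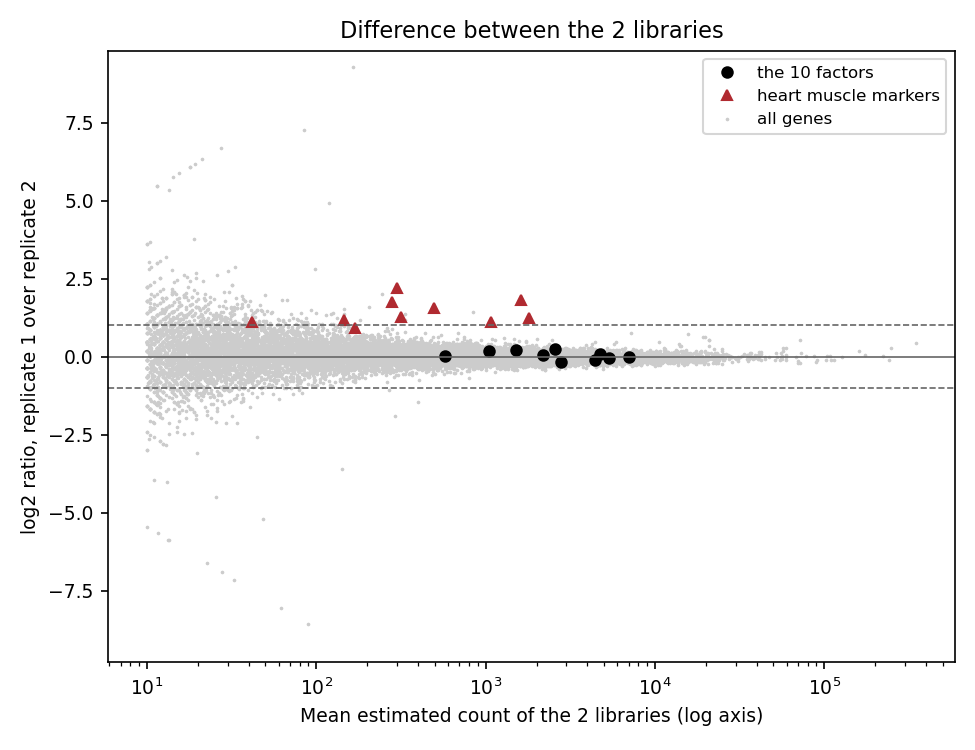
The log2 ratio of replicate 1 over replicate 2 on scaled counts against the mean estimated count (log axis), for genes averaging 10 or more counts; dashed lines mark 2-fold. The 10 genes (black) stay within 0.24 of 0, whereas 9 of the 10 heart muscle markers (red triangles) lie above the upper dashed line.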

How the data were processed

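Total RNA from pooled mouse livers was profiled in 2 libraries of 1 group. Per the labels the assembly was mm10, and deposited text notes state that transcriptome alignments were quantified against GENCODE M4. The file headers are in the form of RSEM output. Which programs and versions were run, and whether counting used strand, is not given in the sources used. Per the file headers, the authors deposited estimated counts, TPM, FPKM and the percent of a gene's TPM carried by each transcript. The deposited TPM includes spike-ins. Bounds of a credibility interval of TPM were deposited as a signal per feature, and their level is not given in the file headers.

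Symbols and coordinates came from GENCODE M21 on GRCm38, matched on the gene identifier for 42462 of 43346 genes. Of 55 transcripts of the 10 genes, all matched and 51 had the same length. The 10 genes and all lists were chosen with earlier results of these data known, and results of some listed genes are not reported here. Named genes were the 10 members, their gene families, the 3 highest genes of each other list and any under 1 TPM in both libraries, the nearest protein-coding neighbours, and transcripts at 20% or more. A few more list members and transcripts (Kdm1a, Kit, Spi1, Trim58, Rcor2, Gatad2b, Rlim, Id4, and minor transcripts of Gata1, Gata2, Tal1, Tcf3, Lmo2, Ldb1 and Cbfa2t3) were named after their values were seen.

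Ratios of TPM used a pseudocount of 0.1. Estimated counts were rounded for edgeR 4.0.16, whose TMM factors over genes at 1 CPM or more scaled the libraries (pseudocount 0.5 counts), and for DESeq2 1.42.0, whose size factors were an alternative, in R 4.3.3. Other steps ran in Python 3.11.15 with scipy 1.17.1 and pandas 2.3.3. The ratios and intervals were tested on simulated counts that held counting error alone. The wider spread between the real libraries was not covered by that test. Transcript starts within 500 bases were joined. The exact binomial intervals take in counting error alone, as the reads carry no molecular identifiers and copies of a molecule cannot be recognised. Neither they nor the deposited credibility intervals, which are given per library, take in the spread between libraries. The spread is that between 2 libraries. Alternatives were other TPM estimates, denominators, pseudocounts, thresholds, scalings, transcript estimates and window lengths, and leaving out each library.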

Additional observations from a re-analysis of the deposited data

How the results depend on the processing

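Of 504 recomputed values for 114 results, 421 kept their call or stayed within the spread or interval of the value reported, 81 moved and 2 that were called changed sign. These were the log2 ratio of Tal1 over Lyl1, 0.35 on estimated counts, and that of replicate 1 over replicate 2 for Lmo2, -0.029 on deposited TPM. Neighbouring pairs in the order of TPM were recomputed only as a number held apart, so a reversal such as that of Lmo2 and Gata1 on estimated counts is not among them. Library ratios whose intervals include 0 also changed sign on deposited TPM, to -0.060 for Lyl1, -0.066 for Tcf3 and -0.094 for Gata2, as they did on TPM of mouse genes only. Other scaling factors turned Tcf3 (-0.0014 with DESeq2 size factors, -0.011 without a low-count filter) and Gata2 (-0.0064 without that filter). The median over the 10 genes, 0.02 as reported, was -0.063 on deposited TPM and -0.0054 on TPM of mouse genes only. On mouse genes only, the median TPM of the 10 genes was 64.4. Among genes averaging 100 or more counts, 32 were at least 2-fold apart between the libraries, against 730 at a mean of 10 or more (496 on deposited TPM), and none of the 10 genes in either case. The median share of the main transcript, 85.1%, was 81.5% with posterior mean estimates and 90.5% on estimated counts. In windows from 100 bases before to 50 bases from the start on, 0 member windows held a GATA motif and 0 the composite, against 14.5% and 1.12% of all windows. Leaving out either library moved 2 of 172 values, but most of these rows could not move. A single library always lies within the SD around the mean of both, and pairs called apart already had to be apart in each library. The 172 values are part of the 504 and say little about how stable the results are. No paired analysis was possible because both libraries belong to 1 group. Transcript shares rest on reads that a model divides among overlapping transcripts, and levels below about 1 TPM, such as that of Gata2-202, are poorly resolved at this depth.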

Other observations

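The nearest protein-coding neighbours that do not overlap the 10 factors spanned levels from 0 to 666 TPM. Those of Gata1 were the deacetylase gene Hdac6 (17.1 ± 1.41 TPM) and Glod5 (0.315 ± 0.120 TPM), both far below Gata1 itself. Gata2 lay between Rpn1 (185 ± 15.1 TPM), a subunit of the glycosylation machinery, and Dnajb8, which was listed at 0 in both libraries. Cbfa2t3 lay beside Pabpn1l, also listed at 0, and Acsf3 (13.3 ± 1.78 TPM), which was close to Cbfa2t3 itself, and Tcf3 between Uqcr11 (666 ± 7.95 TPM), a respiratory chain subunit, and Onecut3 (0.855 ± 0.148 TPM). Tal1 was above both of its neighbours, Stil (14.4 ± 2.87 TPM) and Pdzk1ip1 (19.7 ± 0.233 TPM), as was Gfi1b, next to Gtf3c5 (25.0 ± 2.07 TPM) and Tsc1 (16.3 ± 0.955 TPM). Lmo2, in contrast, was below Caprin1 (294 ± 44.4 TPM) and above Fbxo3 (63.1 ± 8.45 TPM), and Zfpm1 was below Banp (34.0 ± 5.32 TPM) and above Trhr2 (0.035 ± 0.00707 TPM). Ldb1 lay between Hps6 (3.96 ± 0.141 TPM) and Nolc1 (116 ± 5.06 TPM), and Lyl1 between Trmt1 (74.0 ± 2.13 TPM) and G430095P16Rik (9.43 ± 0.0495 TPM).

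Chromosome 8 carries 3 of the 10 genes. Zfpm1 and Cbfa2t3 lie 287890 bases apart there, at 19.3 and 11.6 TPM, and Lyl1 lies 197213 bases from Klf1, which had 377 ± 39.6 TPM.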
